A study of Caenorhabditis elegans with 5 samples.

Results

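The genes described here encode the core machinery of heterotrimeric G protein signalling in Caenorhabditis elegans. They comprise the G protein subunits, the regulators of G protein signalling (RGS), the G protein-coupled receptor kinases (GRK), β-arrestin and the arrestin-domain (ARRD) genes. They were chosen by name, as every gene whose name begins with gpa, gpb, gpc, rgs, arrd or grk followed by a number, plus goa-1, egl-30, gsa-1, odr-3, egl-10, eat-16 and arr-1. The rule gave 71 members among the 42048 genes of the deposited table. A member counted as measured when its normalised read count reached 10 in at least 2 libraries out of 5, which left 60 of 71. The members that fell short were gpa-5 and 10 arrestin-domain genes, 6 of them without a single read. The filter kept 13787 genes of the whole table.

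Polyadenylated RNA was sequenced from neurons that had been isolated by fluorescence-activated cell sorting from adult worms on day 1 of adulthood, grown at 16 °C. The control group, labelled wildtype, carried edIs6, known as an integrated unc-119::GFP reporter transgene, and gave 2 libraries, and the mutant group carried edIs6 together with the allele thoc-5(wy822) and gave 3. The comparison asks how transcript levels in sorted neurons differ when thoc-5, a subunit gene of the THO complex that packages messenger RNA for nuclear export, is mutated. Whether libraries of 1 group came from separately grown worms is not in the labels, and p-values therefore measure no more than how these samples vary, possibly for technical reasons.

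As background, a heterotrimeric G protein consists of a Gα subunit that binds GTP and a Gβγ pair. An activated receptor makes Gα exchange GDP for GTP, and the parted subunits then act on enzymes and channels. RGS proteins end the signal by speeding up GTP hydrolysis on Gα, whereas receptor kinases and arrestin quiet the receptor itself. In worm motor neurons, EGL-30 (Gαq) promotes and GOA-1 (Gαo) restrains the release of acetylcholine, and GSA-1 (Gαs) raises cyclic AMP. Many of the other Gα subunits are worm-specific and are known mainly from chemosensory neurons.

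The libraries held 6.80 M to 10.3 M reads on genes. Wildtype replicate 2 stood apart. A list of 19 pan-neuronal genes took 0.430% of reads in wildtype replicate 1, 0.0384% in wildtype replicate 2 and 1.13% to 1.97% in the mutant libraries, and its member unc-31 had no read in wildtype replicate 2. That library is labelled as sorted neurons, but how far it held neurons cannot be told from the label, and it enters every wildtype mean below. A list of 15 epidermal markers took 5.83% and 8.63% of the reads in wildtype and 0.213% to 1.04% in the mutant. The median level of these markers, as log2(normalised count + 1), overlapped between groups. It was 7.03 in wildtype replicate 1 and 7.84 in wildtype replicate 2, against 6.92, 8.33 and 7.49 in the mutant. Muscle markers took 3.13% and 6.03% against 1.14% to 1.49%, and intestine markers 0.806% and 0.910% against 0.0552% to 0.286%. Germline markers took 0.0858% and 0.223% against 0.0134% to 0.0303%. Glia and coelomocyte markers went the other way, with 0.00673% and 0.0415% in wildtype and 0.159% to 0.278% in the mutant. The part of these differences in the values below was not tested. In bulk samples, fewer cells of a type and less RNA per cell cannot be told apart. The mutated gene, listed as Y32H12A.2, was at 154 and 122.2 in wildtype and at 78.3, 34.6 and 12.7 in mutant libraries (normalised counts), without passing the test (limma, log2 fold change -2.03, SE 0.90, adjusted p = 0.148).

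Most members were higher in the mutant libraries on the deposited scale, whereas their median was lower on a scale set by pan-neuronal genes, as described below. Of the 60 measured members 17 rose and 3 fell (28.3% and 5.0%), where limma called 6.97% of all 13787 genes higher and 5.92% lower at an adjusted p below 0.05. Their log2 fold change (the mutant mean minus the wildtype mean of log2(normalised count + 1)) was above 0 for 49 members and below 0 for 11. The median was 1.91, against 0.13 over all genes tested. For 41 members (68.3%) every mutant library lay above both wildtype libraries, and for 6 (10%) every mutant library lay below them, where the background over all genes was 30.1% and 26.5%. The other 13 overlapped. Of the measured members 8 passed the filter through mutant libraries alone, with no wildtype library at 10 (gpa-15, gpa-4, odr-3, gpa-18, gpc-1, egl-10, rgs-4 and arrd-5). Another 2 passed through wildtype libraries alone (rgs-9 and rgs-11). The direction of all these was fixed by the filter, and the counts over measured members are partly set by it. Others, such as gpa-7, gpa-14, gpa-3, gpa-13, gpa-6, gpa-8, grk-2, arrd-6 and arrd-16, reached 10 in a single wildtype library and needed mutant libraries to pass. Conversely, arrd-14 reached 10 in both wildtype libraries and a single mutant library.

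The direction of these changes depended on the scale. Dividing each library by its geometric mean level over the 19 pan-neuronal genes (the mean of log2(normalised count + 1)) moved the median of all genes to -2.99 and that of the members to -1.07, so the median member was lower on that scale and still above the median gene. Since wildtype replicate 2 held few pan-neuronal reads, the same scale was also applied without it, which gave -1.92 for all genes and -0.40 for the members. On the first of these scales 1 member was called higher and 9 lower, beside 1.36% and 50.7% of all genes. Of the 17 members that rose, 8 kept a positive log2 fold change on both pan-neuronal scales, namely gpa-7, gpa-18, gpa-15, odr-3, gpa-14, arrd-5, arrd-15 and arrd-26. Of these, gpa-15, odr-3, gpa-18 and arrd-5 passed the filter through mutant libraries alone, and gpa-7 and gpa-14 also needed mutant libraries to pass. All 3 that fell, rgs-11, rgs-9 and arrd-14, kept a negative one. Both scales lower log2 fold changes across genes, as the medians show, so a kept negative sign adds no support. A value of 0 stays 0 under scaling, so genes with no read in wildtype replicate 2, such as gpa-15 and odr-3, partly escape that lowering. Also without a read in that library, grk-2 and arrd-16 were at 1.99 and 3.61 with it and at -0.83 and -0.07 without it. Kept positive signs of such genes therefore rest partly on zeros.

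The 20 calls depended on single libraries. Without wildtype replicate 2, or without any 1 of the mutant libraries, the fit left 0 members called in limma, and 0 of all genes. Over the 5 ways of leaving 1 library out, 29 to 37 members (48.3% to 61.7%) had an unadjusted p below 0.05, beside 24.8% to 37.3% of all genes. Without wildtype replicate 1 there were 23 higher and 1 lower (background 15.7% and 3.48%), with 15 of the 20 calls kept. edgeR called 0 members and 0 genes in all (31 members and 3869 genes at an unadjusted p below 0.05). With DESeq2 28 members were higher and 4 lower, where 15.4% and 11.6% of all genes were. The authors' deposited table has 27 and 4, where 13.4% and 10.7% of its genes are called, and all 20 members are called in both. The smallest adjusted p of limma was 0.0382, so every call lay near the threshold. For a single gene, 2 libraries set against 3 allow no two-sided exact permutation p below 0.1.

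**Figure D1:**
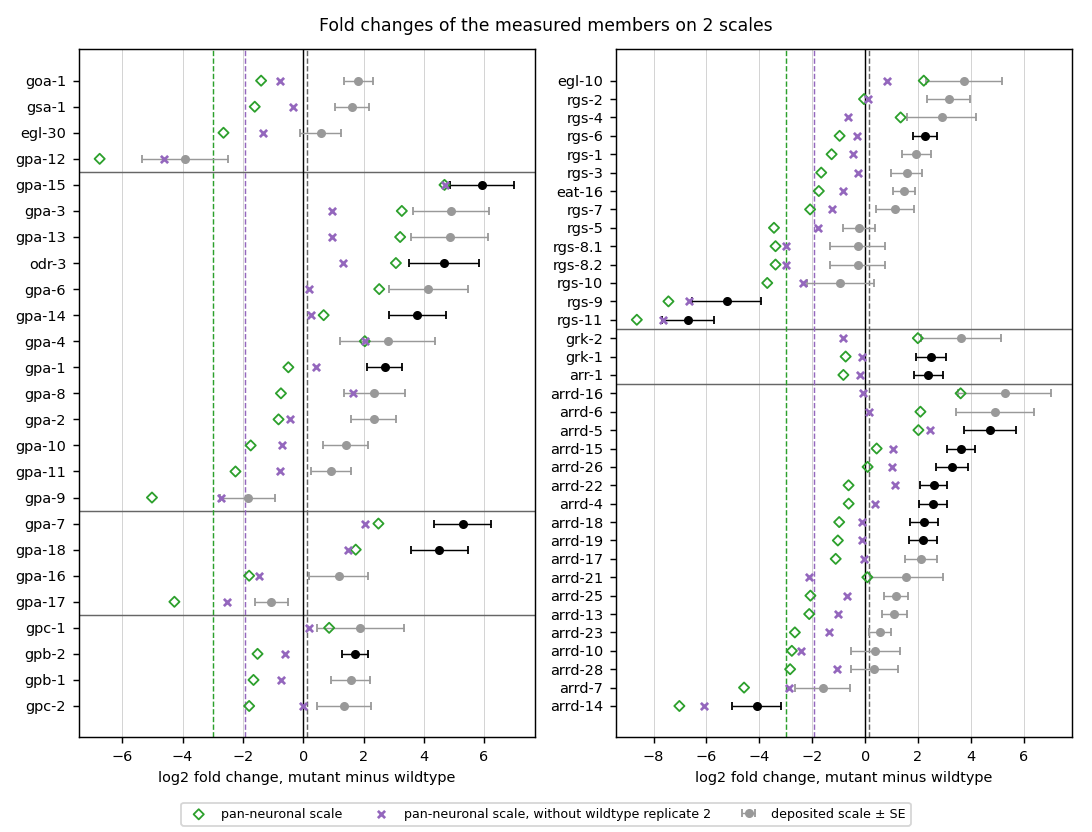
Log2 fold change (mutant minus wildtype, x axis) of each measured member, grouped by role. Filled circles with SE bars are on the deposited scale, black for an adjusted p below 0.05 and grey otherwise; green diamonds and purple crosses are on the pan-neuronal scale with and without wildtype replicate 2, where 9 and 6 of the 20 called members change sign. Dashed lines mark the median of all genes on the deposited scale (0.13) and on the pan-neuronal scales (-2.99 and -1.92).

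The Gα subunits with named mammalian relatives did not pass the test in any of the 4 cases, and egl-30, gsa-1 and goa-1 were among the most abundant members. egl-30 stood at normalised counts of 7768 and 9644 in wildtype against 7016, 13871 and 22657 in the mutant. Mutant replicate 1 lay below both wildtype libraries and the other mutant libraries above them, so the groups overlapped (log2 fold change 0.59, SE 0.68, adjusted p = 0.562). gsa-1 had 1754 and 1997 in wildtype against 3732, 5038 and 10234 in the mutant. goa-1 had 842 and 391 against 1845, 1809 and 2570. For gsa-1 and goa-1 every mutant library lay above wildtype, with log2 fold changes of 1.62 (SE 0.56, adjusted p = 0.0878) and 1.83 (SE 0.49, adjusted p = 0.0534). The authors' deposited table gives them adjusted p-values of 0.0479 and 0.0319. Scaled to the pan-neuronal genes both, with egl-30, were negative, at -1.61, -1.40 and -2.64.

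gpa-12, the Gα12/13 subunit, went in the opposite direction. It is known to act in the epidermis in innate defence as well as in neurons. Its normalised counts were 71.5 and 277 in wildtype against 0.783, 32.4 and 12.7 in the mutant, so both wildtype libraries lay above all mutant libraries. The log2 fold change of -3.93 (SE 1.43) did not pass in limma (adjusted p = 0.0975), while the authors' deposited table gives an adjusted p of 0.0396 for it. Epidermal marker reads were also higher in both wildtype libraries, while the median level of these markers overlapped between groups, as given above. Their part in this value was not tested.

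Levels of different genes were compared per kb of exon (Ensembl WBcel235), for the 57 measured members that the annotation names. On this scale egl-30 and gsa-1 took the first 2 ranks in every library. egl-30 averaged 2216 normalised counts per kb in wildtype and 3695 in the mutant, and gsa-1 averaged 1144 and 3863. goa-1 ranked between place 3 and place 7, with means of 305 and 1027 per kb. rgs-5, of the RGS family, was in place 3 of the wildtype means (482 per kb) and place 9 of the mutant means (427 per kb). grk-1 moved from place 9 (153 per kb) to place 4 (864 per kb). Across the 57 members the rank order was shared more within groups than between them. Spearman's rho of the levels per kb was 0.84 between the wildtype libraries, 0.93 to 0.95 among the mutant libraries and 0.43 to 0.70 between groups. These are descriptions across genes, which share a library and are not replicates.

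**Figure D2:**
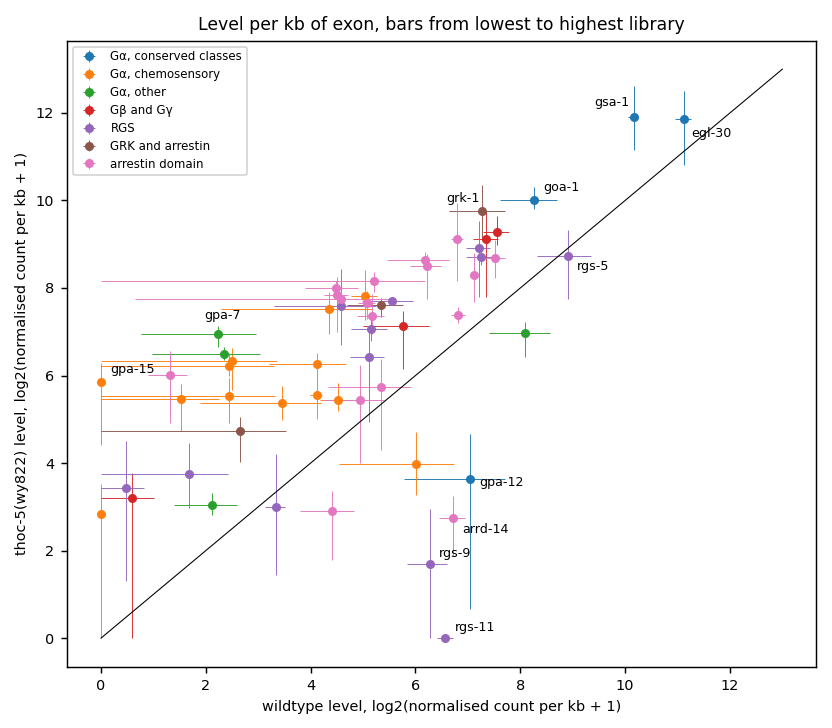
Level of each of 57 members in wildtype (x axis) and thoc-5(wy822) (y axis), as log2(normalised count per kb + 1) of the group mean, with bars from the lowest to the highest library and colours for the role. On the deposited scale most points lie above the line of equal levels, egl-30 and gsa-1 are at the top right, and rgs-11, rgs-9, arrd-14 and gpa-12 lie far below the line; on the pan-neuronal scale the median member was lower in the mutant (-1.07).

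Gα subunits of chemosensory neurons were mostly low in wildtype and higher in the mutant. Of the 13 measured, 4 rose and none fell (30.8% and 0%, beside 6.97% and 5.92% of all genes). For 11 (84.6%, beside 30.1% of all genes) every mutant library lay above wildtype. Of the 13, gpa-15, gpa-4 and odr-3 passed the filter through the mutant libraries alone. A single wildtype library reached 10 for gpa-14, gpa-3, gpa-13, gpa-6 and gpa-8, which also needed mutant libraries to pass. The median log2 fold change was 2.80, or 3.01 with genes lacking wildtype reads at their lower bound, and both are the value of gpa-4, which had no wildtype read. On the pan-neuronal scales with and without wildtype replicate 2 the median was 0.68 and 0.42. With that library 7 genes were above 0 and 6 below. Those above 0 included gpa-3, gpa-4, gpa-6, gpa-13, gpa-15 and odr-3, which had no read in it and so stayed at 0 there.

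gpa-15 (chromosome I, 8531684 to 8534527, minus strand, in WBcel235 as are the other positions) had no read in either wildtype library. In the mutant its normalised counts were 95.6, 89.3 and 25.3. With 228 mutant reads and a floor of 3 reads over the wildtype group, it was at least 49.6-fold higher (limma adjusted p = 0.0384). It was the 1 member called higher on the pan-neuronal scale (log2 fold change 4.69). Since gpa-15 passed the filter through mutant libraries alone, its direction was fixed by the filter.

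odr-3 (chromosome V, 13246324 to 13249536, minus strand) encodes the main Gα subunit of olfactory transduction. Its normalised counts were 6.11 and 0 in wildtype against 80.7, 89.3 and 41.9 in the mutant. All mutant libraries lay far above wildtype, with a log2 fold change of 4.68 (SE 1.15, adjusted p = 0.0479), which was 3.26 without wildtype replicate 2 and 6.09 without wildtype replicate 1. The direction of odr-3 was fixed by the filter, which it passed through mutant libraries alone. gpa-14 (chromosome I, 5942390 to 5945651, plus strand) had 48.0 and 5.31 in wildtype against 326, 257 and 169 in the mutant. The groups did not overlap (log2 fold change 3.79, SE 0.96, adjusted p = 0.0497). Wildtype replicate 2 was much lower than replicate 1, and without it the log2 fold change was 2.31.

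gpa-1 (chromosome V, 11174433 to 11177677, minus strand) had 49.7 and 35.1 in wildtype against 204, 449 and 236 in the mutant (log2 fold change 2.71, SE 0.58, adjusted p = 0.0420). Scaled to the pan-neuronal genes it was -0.49, and 0.42 without wildtype replicate 2. Exons of T19C4.5 overlap 18.9% of its exon length, and reads of the 2 genes cannot be told apart there because the kits named do not mark strand. T19C4.5 itself had 157 and 24.4 in wildtype against 609, 205 and 236 in the mutant.

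Several chemosensory Gα genes came close to the threshold in limma without passing it. In the authors' deposited table gpa-3, gpa-2 and gpa-13 pass (adjusted p = 0.0103, 0.0365 and 0.0109), and gpa-6 does not (0.0599). gpa-3, which acts with gpa-2 in the response to dauer pheromone, had 13.95 and 0 in wildtype against 108, 144 and 98.4 in the mutant. gpa-2 had 34.9 and 11.7 against 85.4, 109 and 130. gpa-13 had 13.1 and 0, and gpa-6 13.95 and 0, against 70.3 to 137 and 45.4 to 94.5. In each of these genes all mutant libraries lay above wildtype. gpa-8, gpa-10 and gpa-11 also did not overlap, with at most 48.9 in wildtype and at least 40.0 in the mutant for any of them. gpa-4 had no wildtype read, and its mutant libraries had 14.9, 20.1 and 0, which put it at least 8.05-fold higher over the group.

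gpa-9 was the chemosensory Gα gene that pointed down. It had 69.8 and 333 in wildtype against 79.9, 33.5 and 27.3 in the mutant, so mutant replicate 1 lay between the wildtype libraries. Exons of F56H9.8 overlap 36.8% of its exon length, and that gene had no read in wildtype against 17.2, 21.2 and 13.6 in the mutant. In reads, gpa-9 alone gave 313 of the 467 reads of all chemosensory Gα genes in wildtype replicate 2 and 80 of 352 in wildtype replicate 1.

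A list of markers of ciliated sensory neurons took a higher share of reads in every mutant library than in wildtype, as did the chemosensory Gα genes. Among the mutant libraries the order differed between the list and these genes. In wildtype it differed only through gpa-9, which gave 313 of the 467 chemosensory Gα reads in replicate 2 and 80 of 352 in replicate 1. Without gpa-9, wildtype replicate 1 had the higher share of both. Of the 29 genes on that list every one had a read in each library except wildtype replicate 2, where 24 had one and daf-11, dyf-5, tax-4, bbs-1 and osm-9 had none. The list took 0.0450% and 0.0212% of the reads in wildtype against 0.295%, 0.590% and 0.467% in the mutant. The chemosensory Gα genes took 0.00341% and 0.00457% of the reads in wildtype against 0.0236%, 0.0207% and 0.0131% in the mutant. Per 100 reads of the ciliated list they had 7.59 and 21.5 in wildtype against 8.00, 3.51 and 2.81 in the mutant. Without gpa-9 these ratios were 5.87 and 7.10 against 7.53, 3.43 and 2.74. The groups overlapped in both ratios, which were chosen after the values had been seen.

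Among the other Gα genes 2 rose (50%, beside 6.97% of all genes) and 2 did not pass. gpa-7 (chromosome IV, 10404008 to 10408747, plus strand), a Gi/o-like subunit gene of neurons and muscle, had 10.5 and 1.06 in wildtype against 154, 203 and 215 in the mutant. gpa-18 (chromosome IV, 5189007 to 5195631, minus strand) had 7.85 and 1.06 against 94.0, 108 and 88.7. Both were low in wildtype and close together in the mutant, with log2 fold changes of 5.29 (SE 0.94, adjusted p = 0.0384) and 4.51 (SE 0.95, adjusted p = 0.0417). Without wildtype replicate 2 they were 4.05 and 3.46, without wildtype replicate 1 6.52 and 5.57, and on the pan-neuronal scale 2.49 and 1.74. The direction of gpa-18 was fixed by the filter, which it passed through mutant libraries alone. A single wildtype library reached 10 for gpa-7, which also needed mutant libraries to pass. gpa-17 had 222 and 499 in wildtype against 113, 196 and 184 in the mutant, lower in every mutant library (log2 fold change -1.06, adjusted p = 0.213). gpa-16, known from spindle positioning in the embryo, stayed between 4.25 and 23.4 in all libraries.

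**Figure D3:**
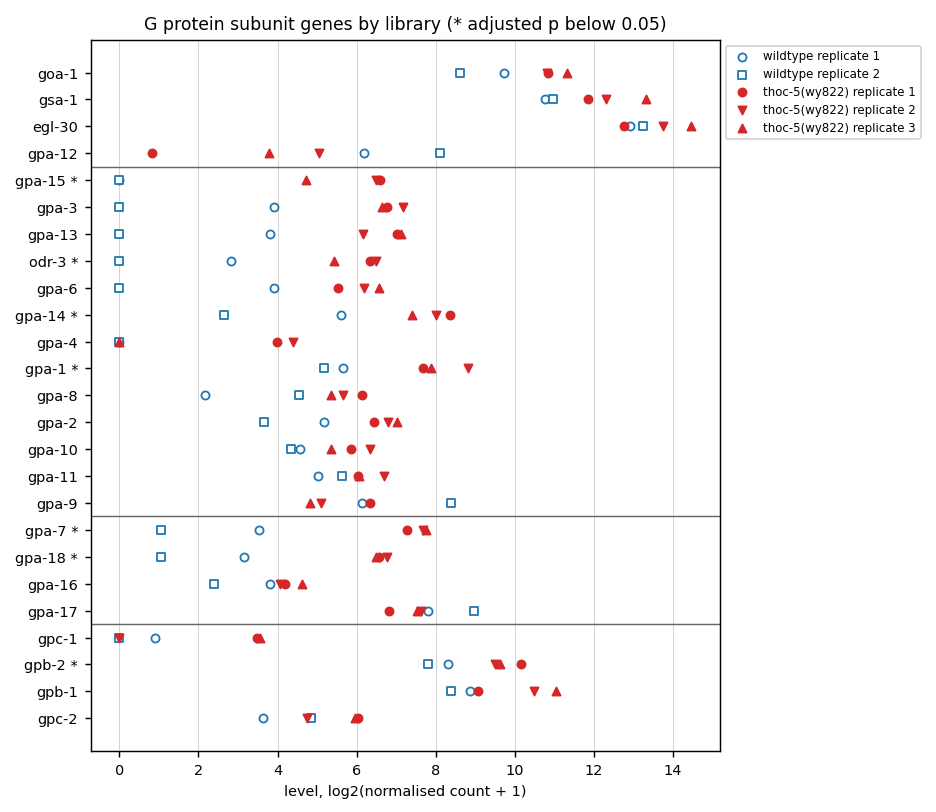
Level of each G protein subunit gene in each library, as log2(normalised count + 1) on the x axis, with open blue symbols for the 2 wildtype and filled red symbols for the 3 mutant libraries. An asterisk marks an adjusted p below 0.05. The chemosensory Gα genes (second block) are low or at 0 in wildtype and mostly higher in all mutant libraries. On the pan-neuronal scale 7 of these 13 were above 0 and 6 below (median 0.68). Those above 0 included gpa-3, gpa-4, gpa-6, gpa-13, gpa-15 and odr-3, which had no read in wildtype replicate 2. In all mutant libraries gpa-12 and gpa-17 lie to the left.

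The Gβ and Gγ genes were all higher on average in the mutant on the deposited scale, with a median log2 fold change of 1.65 that was -1.58 on the pan-neuronal scale and -0.31 on it without wildtype replicate 2. Of the 4, 1 rose (25%, beside 6.97% of all genes). gpb-2 (chromosome I, 7318290 to 7321085, minus strand), which encodes the Gβ5-type subunit that pairs with the RGS proteins EGL-10 and EAT-16, had 316 and 223 in wildtype against 1148, 728 and 792 in the mutant. The groups did not overlap (log2 fold change 1.71, SE 0.43, adjusted p = 0.0493). gpb-1, the canonical Gβ gene, had 467.5 and 333 against 541, 1428 and 2128. Mutant replicate 1 of gpb-1 was close to wildtype and the others well above it (log2 fold change 1.58, SE 0.64, adjusted p = 0.125). The Gγ gene gpc-2 overlapped between groups, with 11.3 and 27.6 against 65.0, 25.7 and 61.4 (log2 fold change 1.35, adjusted p = 0.304). gpc-1, a Gγ gene of sensory neurons, had 24 reads in the mutant libraries together and 1 in wildtype, a ratio of 15.7 with a 95% counting interval of 2.55 to 644. It passed the filter through mutant libraries alone.

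Of 14 measured RGS genes 1 rose and 2 fell, shares of 7.14% and 14.3% beside 6.97% and 5.92% of all genes, which rest on 3 genes. The median log2 fold change of 1.30 was above 0 on the deposited scale, but -1.92 on the pan-neuronal scale and -1.05 on it without wildtype replicate 2. rgs-6 (chromosome X, 5720381 to 5733778, minus strand) had 202 and 101 in wildtype against 706, 661 and 690.1 in the mutant. The mutant libraries were close to one another and lay above wildtype (log2 fold change 2.26, SE 0.46, adjusted p = 0.0404). Scaled to the pan-neuronal genes it was -0.97.

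rgs-11 (chromosome X, 14964553 to 14965976, plus strand) had the most negative log2 fold change of all measured members (-6.70). Its normalised counts were 115.1 and 92.4 in wildtype and 0 in each of the 3 mutant libraries. With 219 wildtype reads and a floor of 3 reads over the mutant group, it was at least 112-fold lower (limma adjusted p = 0.0382). The adjacent gene on the same strand, rgs-10, lies 409 bp away, and its counts of 8.72 and 11.7 against 19.6, 2.23 and 1.95 overlapped between groups. rgs-9 (chromosome X, 1915258 to 1917162, plus strand) had 95.9 and 56.3 in wildtype against 0, 6.70 and 0 in the mutant. It fell by 5.24 on the log2 scale (SE 1.29, adjusted p = 0.0480). No exon of another gene overlaps either rgs-9 or rgs-11 in the annotation. Both passed the filter through wildtype libraries alone, so their direction was fixed by the filter.

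The RGS genes with well-known neuronal roles were higher in every mutant library without passing in limma. In the authors' deposited table eat-16, egl-10, rgs-1 and rgs-2 pass (adjusted p = 0.0387, 0.0280, 0.0211 and 0.00947). There rgs-3 does not pass (adjusted p = 0.0734). eat-16, whose product acts on EGL-30, had 431 and 299 in wildtype against 970.5, 884 and 1162 in the mutant (log2 fold change 1.48, SE 0.41, adjusted p = 0.0568). egl-10, whose product acts on GOA-1, had 3.49 and 0 against 97.9, 6.70 and 28.3 (log2 fold change 3.73, SE 1.43, adjusted p = 0.109). rgs-3, which dampens signalling in chemosensory neurons, had 397 and 547 against 711, 1567 and 2373 (log2 fold change 1.57, SE 0.59, adjusted p = 0.105). On the pan-neuronal scale eat-16 and rgs-3 were -1.75 and -1.66, and egl-10 was 2.22. Of these genes, egl-10 passed the filter through mutant libraries alone, so its direction was fixed by the filter. rgs-1 and rgs-2, both of which act on GOA-1 in the egg-laying circuit, had 64.5 and 39.3 against 165 to 247, and 92.4 and 22.3 against 258 to 864. rgs-8.1 and rgs-8.2 had the same value as each other in every library, so their separate levels are uncertain.

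Receptor kinase and arrestin genes were higher in the mutant on the deposited scale (median log2 fold change 2.49) and lower on the pan-neuronal scales (-0.74, and -0.21 without wildtype replicate 2). Of the 3, 2 rose (66.7%, beside 6.97% of all genes). grk-1 (chromosome X, 9991248 to 9999208, minus strand) had 592 and 283 in wildtype against 1546, 2131 and 3715 in the mutant (log2 fold change 2.49, SE 0.56, adjusted p = 0.0440). arr-1 (chromosome X, 950782 to 954233, plus strand), the β-arrestin gene of the worm, known from olfactory adaptation, had 82.0 and 38.2 against 333, 247 and 318, a log2 fold change of 2.38 (SE 0.54, adjusted p = 0.0444). In both genes every mutant library lay well above wildtype. grk-2, which chemosensation requires, had 28.8 and 0 in wildtype against 79.1, 88.2 and 41.9 in the mutant. Wildtype replicate 2 had no grk-2 read, and without it the log2 fold change of 3.63 (SE 1.51, adjusted p = 0.130) was 1.18.

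Arrestin-domain genes, the group with the most measured members, gave the largest number of calls but not the largest share. Their products resemble arrestins and the mammalian ARRDC proteins, some of which act as adaptors for ubiquitin ligases. Of the 28 genes 18 were measured, and of these 7 rose, 1 fell and 10 did not pass. The shares were 38.9% higher and 5.56% lower, beside 6.97% and 5.92% of all genes. The median log2 fold change was 2.14 on the deposited scale but -1.01 on the pan-neuronal scale and -0.13 on it without wildtype replicate 2.

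arrd-15 (chromosome III, 8930023 to 8936746, plus strand) had 47.1 and 22.3 in wildtype against 463, 412 and 369 in the mutant (log2 fold change 3.63, SE 0.53, adjusted p = 0.0382). arrd-5 (chromosome II, 9835221 to 9837024, plus strand) had 2.62 and 1.06 against 115.1, 85.9 and 36.1, a log2 fold change of 4.72 (SE 0.97, adjusted p = 0.0409). arrd-26 (chromosome IV, 2066195 to 2072019, plus strand) had 35.8 and 25.5 against 432, 177 and 364, a log2 fold change of 3.29 (SE 0.61, adjusted p = 0.0384). In these 3 genes the mutant libraries all lay several-fold above wildtype, and the log2 fold change stayed above 0 on the pan-neuronal scale (0.43, 2.01 and 0.09). Of the 3, arrd-5 passed the filter through mutant libraries alone, so its direction was fixed by the filter.

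The other 4 that rose had negative values on that scale, and without wildtype replicate 2 arrd-22 and arrd-4 were positive on it (1.14 and 0.36). arrd-22 had 65.4 and 151 in wildtype against 682, 600.5 and 540.0 in the mutant (log2 fold change 2.59, and -0.63 on the pan-neuronal scale). arrd-4 had 44.5 and 35.1 against 189, 294 and 250.5 (2.58, and -0.62). Neighbouring genes on chromosome V, arrd-18 and arrd-19 lie 1126 bp apart on the minus strand. arrd-18 had 134 and 88.2 against 652, 321 and 659 (2.24, and -0.98), and arrd-19 had 74.1 and 51.0 against 244, 219 and 419 (2.18, and -1.03). Their adjusted p-values ranged from 0.0396 to 0.0480 in limma. arrd-5 and arrd-4 overlap by 16 bp on opposite strands, about 1.3% of the exon length of either.

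arrd-14 (chromosome II, 13752316 to 13756267, plus strand) was the arrestin-domain gene that fell. It had 144 and 102 in wildtype against 3.13, 10.05 and 6.82 in the mutant, a fall of 4.11 on the log2 scale (SE 0.91, adjusted p = 0.0437). Its neighbour arrd-13 lies 2140 bp downstream on the same strand and went the other way in every mutant library, with 222 and 200 in wildtype against 682, 311 and 445 in the mutant, without passing. Further along the same strand, arrd-11 and arrd-12 had no read in any library.

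Among arrestin-domain genes that did not pass, arrd-25 had the highest mean normalised count, with 350 and 470 in wildtype against 1231, 896 and 673.5 in the mutant (log2 fold change 1.16, SE 0.44, adjusted p = 0.109). Per kb of exon, arrd-17 was higher than arrd-25 in the mutant mean (551 against 414) and lower in wildtype (110.5 against 182). arrd-17 had 171 and 147 in wildtype against 1405, 409 and 563 in the mutant, and it passes in the authors' deposited table (adjusted p = 0.0182). arrd-6 and arrd-16 had large gaps between the wildtype libraries, with 85.5 and 1.06, and 95.9 and 0. In the mutant they ranged from 335 to 464 and from 320 to 441, above wildtype in every library. arrd-10, arrd-21 and arrd-28 overlapped between groups.

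**Figure D4:**
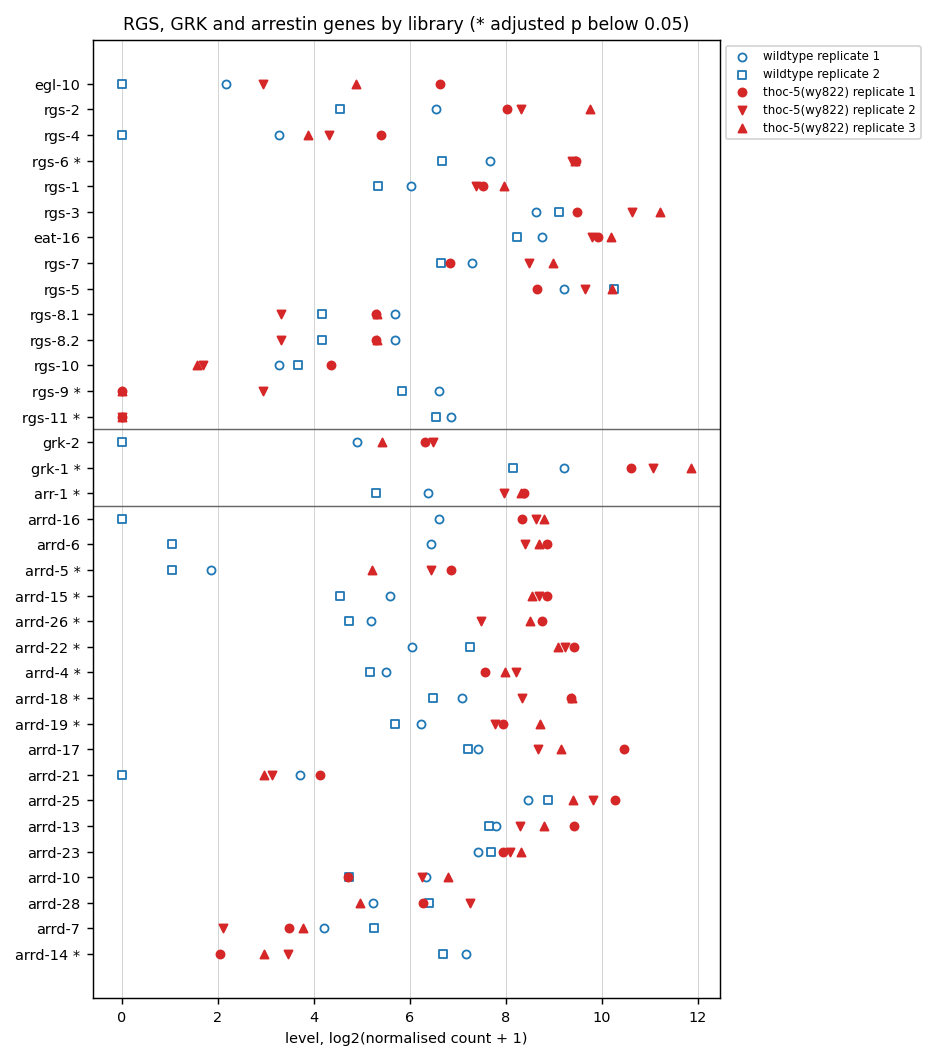
Level of each RGS, GRK, arrestin and arrestin-domain gene in each library, as log2(normalised count + 1) on the x axis, with open blue symbols for wildtype and filled red symbols for mutant libraries. An asterisk marks an adjusted p below 0.05. rgs-11 is at 0 in all mutant libraries and rgs-9 and arrd-14 lie far to the left there, while most other genes lie to the right; on the pan-neuronal scale the medians of the 3 blocks turn negative (-1.92, -0.74 and -1.01).

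The members together took 0.184% and 0.169% of the reads in wildtype against 0.501%, 0.491% and 0.673% in the mutant, with exact (Clopper-Pearson) 95% intervals no wider than 0.00544 percentage points to either side. The mutant mean was 3.14 times the wildtype mean. egl-30 alone gave 0.0864% and 0.0888% in wildtype against 0.122%, 0.183% and 0.268% in the mutant. Against pan-neuronal reads the order was different, with 42.8 and 441 member reads per 100 pan-neuronal reads in wildtype against 29.4, 43.4 and 34.2 in the mutant. Wildtype replicate 1 therefore fell within the range of the mutant libraries on this measure, and wildtype replicate 2 lay far above it. Of the 60 measured members 12 (20%) had no read in wildtype replicate 2, where 13.5% of all tested genes had none, and between 2 and 3 had none in each other library, where the shares of all tested genes were 3.96% in wildtype replicate 1 and 6.64%, 2.28% and 6.61% in the mutant.

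**Figure D5:**
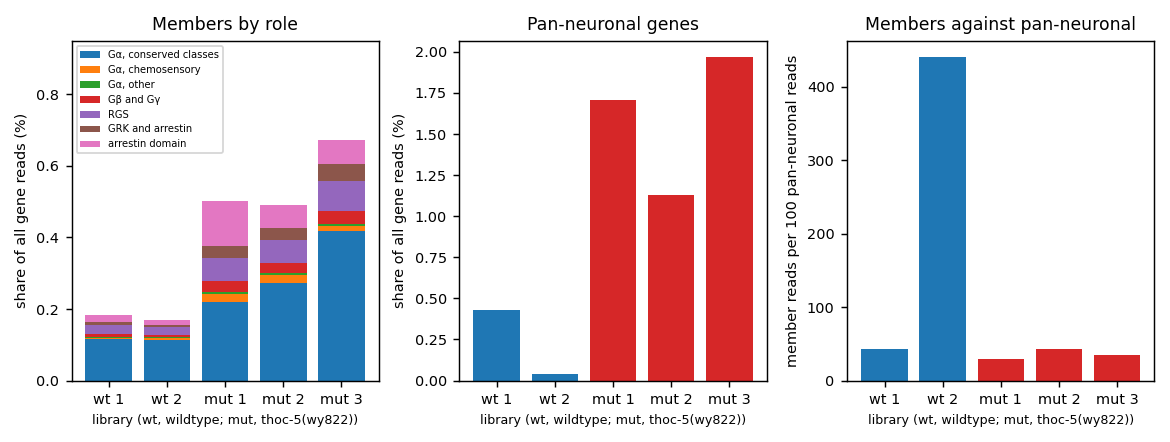
Share of all gene reads taken by the members, by role (left), by the 19 pan-neuronal genes (middle), and member reads per 100 pan-neuronal reads (right), for each library, with all axes starting at 0. The members' share is higher in the 3 mutant libraries (0.491% to 0.673%) than in wildtype (0.169% and 0.184%), but per pan-neuronal read wildtype replicate 1 (42.8) lies within the mutant range and wildtype replicate 2 (441) far above it.

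Effectors and partners of the G proteins were described from a list of 31 further genes, all of them measured. Of these 8 rose and none fell (25.8%, against the same background of 6.97%), with a median log2 fold change of 1.86 that was -1.37 on the pan-neuronal scale. For 25 (80.6%) every mutant library lay above wildtype, and for 1 (3.23%) below, beside 30.1% and 26.5% of all genes.

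Among genes of cyclic nucleotide turnover, the adenylyl cyclase gene acy-2 had 144 and 45.7 in wildtype against 1411, 1046 and 748 in the mutant (log2 fold change 3.65, adjusted p = 0.0382). A further cyclase gene, acy-4, had 60.2 and 3.19 against 699, 471 and 356 (log2 fold change 4.94, adjusted p = 0.0440), and 3.00 without wildtype replicate 2. Of the 6 phosphodiesterase genes, whose products degrade cyclic nucleotides, 3 rose, and pde-1, pde-2 and pde-4 did not pass. pde-5 had 5.23 and 0 in wildtype against 106, 313 and 168 in the mutant, while pde-3 and pde-6 had log2 fold changes of 3.38 and 2.90 (0.17 and -0.32 on the pan-neuronal scale, 0.53 and 0.51 on it without wildtype replicate 2).

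Among genes of diacylglycerol signalling, the protein kinase C genes pkc-1 and tpa-1 had log2 fold changes of 2.96 and 2.00, and unc-13, whose product binds diacylglycerol and primes synaptic vesicles, had 3.06 (adjusted p from 0.0384 to 0.0477). On the pan-neuronal scale pkc-1, tpa-1 and unc-13 were -0.26, -1.23 and -0.17, and on it without wildtype replicate 2 they were 0.27, -0.61 and 0.16.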

How the data were processed

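Levels in 5 libraries labelled as sorted neurons, 2 wildtype and 3 thoc-5(wy822), were read from the single table the authors deposited. Polyadenylated RNA was turned into cDNA with a SMARTer v4 kit and libraries were made with Nextera XT, per the labels' protocols. The submitters' processing notes name Trim Galore, STAR 2.4.2a and DESeq2, with ce10 as the build. Which read counter and which gene annotation were used is not given in the sources used here. For each library the authors deposited a normalised signal, in which reads per gene are divided by a size factor. The table the authors deposited also holds a log2 fold change with its error, a test statistic (a score), and p-values, per the file headers. Whole reads could be recovered for 100% of values in each library, within a tolerance of 0.0001 reads. Reads on genes totalled 10.3 and 10.2 M in the wildtype libraries, and 7.36, 6.80 and 8.69 M in the mutant ones.

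Tests were run with limma 3.58.1 under R 4.3.3 (lmFit, then eBayes with trend) on log2(normalised count + 1), fitted over all 13787 genes that reached 10 in at least 2 libraries out of 5, two-sided, with Benjamini-Hochberg adjustment over all of them and a threshold of 0.05. On the recovered reads edgeR 4.0.16 called 0 genes and DESeq2 1.42.0 called 2123 higher and 1595 lower. The fit was also run on simulated independent counts. These held no library of deviating composition, so that run does not bear on the effect of wildtype replicate 2. Intervals and the floor of 3 reads cover counting error only, since reads carry no molecular identifiers. Named with full statistics are the called members, in each role group the 3 with the smallest p and the most abundant, the best-known subunits and regulators, and up to 8 called genes of the effector list. Members and lists were chosen with earlier results of these data known. Positions and exon lengths come from Ensembl release 115 of WBcel235, matched by name for 66 of 71 members and not for rgs-8.1, rgs-8.2, arrd-20, arrd-21 and arrd-27. That build differs from ce10. Among measured members 20 of 57 share exon bases with another gene, 18 of them over less than 10% of their length. No sequence was used here. The alternatives tried were pseudocounts of 0.5 and 8, a replicate block, a filter of 50 or none, upper quartile and quantile scaling, scaling by the geometric mean of 19 pan-neuronal genes, array weights, edgeR, DESeq2, the authors' deposited p-values and leaving out each library. A lone wildtype library was taken to have the spread of the mutant ones.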

Additional observations from a re-analysis of the deposited data

How the results depend on the processing

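Members called higher (17 in limma) numbered 27 with a pseudocount of 8, 11 without a filter, 7 with array weights, 1 under pan-neuronal scaling, 0 in edgeR, 28 in DESeq2 and 27 in the authors' deposited table. Members called lower (3) numbered 1 without a filter and with array weights, 9 under pan-neuronal scaling and 0 in edgeR. Of the effector list (8 higher, 0 lower), pan-neuronal scaling called 1 higher and 6 lower, edgeR 0 and DESeq2 13 higher. Over all genes (961 higher, 816 lower) the counts were 1737 and 1480 with a pseudocount of 8, 1573 and 1425 with quantile scaling, 188 and 6985 with pan-neuronal scaling, 436 and 371 with array weights, 0 and 0 in edgeR (3869 at an unadjusted p below 0.05), 2123 and 1595 in DESeq2, and 2063 and 1654 in the authors' deposited table. Without a filter 533 genes were higher. Upper quartile and quantile scaling put the median of all genes at 0.10 and -0.02 and turned no called member. Pan-neuronal scaling without wildtype replicate 2, chosen after seeing the data, called 0 members and 0 effector genes higher and 39 genes higher and 1821 lower overall. The cause of these shifts was not tested.

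Leaving out 1 library gave 0 to 23 members higher, 0 to 1 lower, 0 to 16 effector genes higher, and 0 to 2167 and 0 to 480 genes in all. Members without overlap numbered 42 to 43 higher and 6 to 8 lower, where 33.5% to 40.7% and 29.3% to 36.6% of all genes did not overlap. Under pan-neuronal scaling they numbered 8 and 26, beside 5.8% and 65.3% of all genes. Median log2 fold changes ranged from 0.70 to 1.47 for the conserved Gα genes, 2.39 to 3.91 for the chemosensory, 1.97 to 3.73 for the other Gα, 1.22 to 1.89 for Gβγ, 0.94 to 1.63 for RGS, 1.84 to 3.02 for receptor kinases and arrestin, and 1.83 to 2.395 for arrestin-domain genes. The ratio of read shares ranged from 2.81 to 3.32, and was 0.148 with pan-neuronal reads as the denominator, which rests on wildtype replicate 2: without it that ratio was 0.833.

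Under pan-neuronal scaling with, and then without, wildtype replicate 2 the medians were -2.13 and -1.05 for the conserved Gα genes, 0.68 and 0.42 for the chemosensory, -0.026 and 0.020 for the other Gα, -1.58 and -0.31 for Gβγ, -1.92 and -1.05 for RGS, -0.74 and -0.21 for receptor kinases and arrestin, and -1.01 and -0.13 for arrestin-domain genes. The chemosensory median was 3.44 with a pseudocount of 0.5 and 3.79 with a filter of 50, the other Gα median 1.93 with a pseudocount of 8 and 4.51 with a filter of 50, and the Gβγ median 1.32 with a pseudocount of 8. Of 49 members above 0, 30 turned negative under pan-neuronal scaling and 29 on it without wildtype replicate 2. Among the genes named with full statistics, those that turned were arr-1 (-0.82), grk-1 (-0.74), egl-30 (-2.64), goa-1 (-1.40), gsa-1 (-1.61), gpa-1 (-0.49), gpb-1 (-1.65), gpb-2 (-1.51), gpc-2 (-1.79), eat-16 (-1.75), rgs-3 (-1.66), rgs-6 (-0.97), arrd-4 (-0.62), arrd-18 (-0.98), arrd-19 (-1.03), arrd-22 (-0.63), arrd-25 (-2.07), pkc-1 (-0.26), pde-6 (-0.32), unc-13 (-0.17) and tpa-1 (-1.23). Among the same genes, those that turned on that scale without wildtype replicate 2 were arr-1 (-0.21), grk-1 (-0.10), grk-2 (-0.83), egl-30 (-1.32), goa-1 (-0.78), gsa-1 (-0.35), gpb-1 (-0.73), gpb-2 (-0.60), gpc-2 (-0.016), eat-16 (-0.85), rgs-3 (-0.26), rgs-6 (-0.30), arrd-18 (-0.12), arrd-19 (-0.14), arrd-25 (-0.69) and tpa-1 (-0.61).

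With the replicate number as a block, which leaves mutant replicate 3 without a partner, limma called 0 members higher and 0 lower (31 at an unadjusted p below 0.05), 0 effector genes, and 0 and 0 of all genes (3951 at an unadjusted p below 0.05), with medians of 3.91 for the chemosensory Gα genes and 1.22 for Gβγ. Deviations from the group means correlated at 0.00931 for number 1 and 0.111 for number 2. The deviations of the 2 wildtype libraries mirror each other, so these values cannot show whether samples of 1 number were paired. Low reads limit gpc-1, gpa-4, arrd-5, egl-10, gpa-18, rgs-4 and the wildtype levels of most chemosensory Gα genes.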
